A study of Zea mays with 9 samples.

Results

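Isolated low-pileup sites in the central parts of the maize chromosomes were 309 of the 3042 peaks listed for ZmbZIP60, and 309 of the 2489 peaks on chromosomes 1 to 10. A peak is a stretch of genome where a pull-down holds more sequencing tags than its control, the summit is its highest point, and the pileup is the number of tags, extended to 200 bp, that cover the summit. The sites were chosen by their measured pileup, which had to be under 30, by isolation, with no other ZmbZIP60 peak within 10000 bp, and by position, with the summit between 25% and 75% of the chromosome's length. The last position listed was taken as that length. Of the chromosomal peaks, 1213 had a pileup under 30, 1039 of these were also isolated, and 309 of those were central. A further 68 central peaks had a pileup under 30 but lay closer to another peak. The 730 isolated low-pileup sites nearer to the chromosome ends are called outer sites below.

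The series mapped the genomic regions bound by 2 maize transcription factors by chromatin immunoprecipitation and sequencing (ChIP-seq) in protoplasts made from leaves of B73, a maize inbred line. It has 9 libraries in 3 groups of 3: protoplasts with a GFP fusion of ZmbZIP60, protoplasts with a GFP fusion of ZmbZIP17, and protoplasts with the GFP vector alone as the control in the GFP antibody pull-down. The titles name the fusions GFP-ZmbZIP60C and GFP-ZmbZIP17C, and the final C is left out below. Another label of the ZmbZIP17 samples reads bZIP91. Tunicamycin in DMSO, at 5 mg per ml, is given as the treatment of the seedlings of all 3 groups, so an unstressed group was not compared, and the factors were introduced into the cells as fusions rather than followed as the plant's own proteins. The promoter that drove the fusions is not given in the labels. The libraries of each group were merged before peaks were called, so no value below has an error between replicates. The merged ZmbZIP60 library held 18726110 tags after filtering, the merged ZmbZIP17 library 126318506, and the merged vector control 47193255. The name of the merged ZmbZIP60 input carries the numbers 1 and 3, and whether replicate 2 was part of it is not stated.

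Tunicamycin blocks N-glycosylation, so that unfolded proteins build up in the endoplasmic reticulum (ER). In plants, the ER membrane protein IRE1 then splices the mRNA of bZIP60, and the spliced form encodes a nuclear factor that activates genes for ER chaperones and folding enzymes. ZmbZIP17 belongs to the other arm, in which a membrane-anchored factor is cut free and moves to the nucleus. The central parts of maize chromosomes surround the centromeres and are known as rich in retrotransposons and poor in genes, whereas genes crowd towards the chromosome ends. The genes and sequences at these sites were not analysed here. Coordinates are those of the deposited lists, 1-based, whose contig names point to version 4 of the B73 genome.

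The pileup, isolation and position of the central sites were used to choose them, and fold, p, q and control background come from the same comparison. These values are therefore described without a test. The value of each peak is the authors' own. The fold enrichment divides the pull-down pileup at the summit by the local control level, with 1 added to each, and q is the p of the peak caller's Poisson test adjusted for the number of tests.

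The central sites were thinly spread. They numbered 2.95 per 10 Mb, against 6.97 per 10 Mb for outer sites, so the outer parts held 2.36 times as many. The same order was found on 10 of 10 chromosomes. Chromosome 3 was the densest, with 45 central sites (3.85 per 10 Mb) and 88 outer sites (7.54 per 10 Mb). Chromosome 2 was the sparsest, with 27 central sites (2.21 per 10 Mb) and 96 outer sites (7.87 per 10 Mb). The central share of isolated low-pileup sites ranged from 22.0% on chromosome 2 to 36.2% on chromosome 4, where 34 sites were central and 60 outer. Chromosome 1, the longest, held 49 central sites, 28.5% of its isolated low-pileup sites. Among the other 1450 chromosomal ZmbZIP60 peaks, those near another peak or with a higher pileup, 735 were central and 715 outer (50.7% central), while the isolated low-pileup sites were 29.7% central. This contrast was not tested, because position, pileup and isolation chose the sites.

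**Figure D1:**
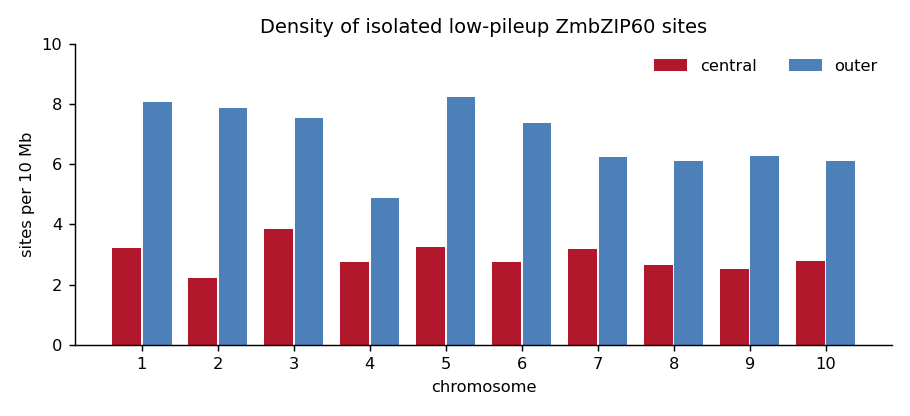
Isolated low-pileup ZmbZIP60 sites per 10 Mb (vertical axis) on each of the 10 chromosomes (horizontal axis), with red bars for central sites and blue bars for outer sites. The red bar is the lower one on every chromosome, and the bars are closest on chromosome 4, at 2.76 central and 4.86 outer sites per 10 Mb.

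Within the central parts the sites were not evenly placed. The right part, from 50% to 75% of the length, held 198 of them and the left part, from 25% to 50%, held 111. The right part held more on 8 of 10 chromosomes. Chromosome 9 had 17 sites in the right and 3 in the left part, and chromosome 7 had 25 in the right and 4 in the left part. Chromosome 5 had the reverse order, with 14 sites in the right and 22 in the left part, and so did chromosome 10, with 8 in the right and 13 in the left part. With each chromosome cut into 20 bins of 5% of its length and the 10 chromosomes summed, central bins held 16 to 55 sites and outer bins 25 to 121. The fewest, 16 each, lay in the bins from 30% to 35% and from 45% to 50%. From 50% onwards the counts were 27, 34, 42, 40 and 55, and they went on to 121 in the last bin before the chromosome end. In the right central part isolated low-pileup sites were 38.4% of all 516 ZmbZIP60 peaks, and in the left central part 21.0% of 528. Outside the central parts they were 56.7% of 790 peaks beyond 75% of the length and 43.1% of 655 peaks before 25%. On chromosome 6 no central site lay before 34.9% of the length, on chromosome 9 none before 38.3%, and on chromosome 10 none beyond 64.0%. Nearest to the chromosome middle was chromosome 2, 122068086 to 122068285, at 50.1% of the length, with 13 tags and a fold of 4.14. Nearest to the border was chromosome 4, 184983805 to 184984052, at 74.99%, with 18 tags and a fold of 5.03.

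**Figure D2:**
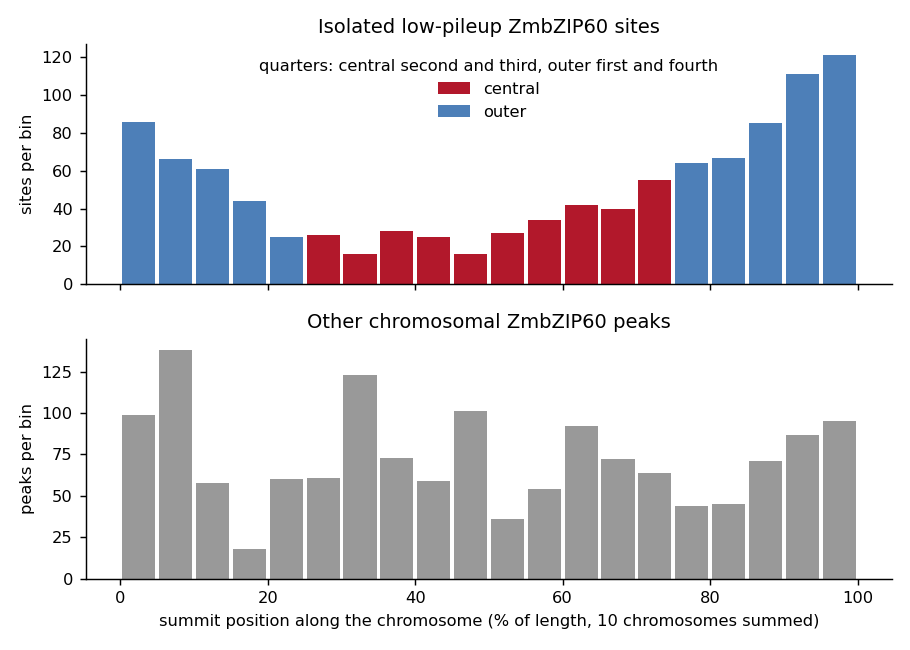
Number of ZmbZIP60 peaks (vertical axes) in bins of 5% of chromosome length (horizontal axis, 10 chromosomes summed), with isolated low-pileup sites above (red central, blue outer) and other chromosomal peaks below (grey). The upper counts are lowest in the middle, with 16 sites in a pair of central bins, and highest at the right-hand end, with 121, while the grey counts vary between 18 and 138 along the length.

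Each central site rested on few tags. The pileup was 9 to 29 tags, with a median of 15 and an interquartile range of 13 to 19. Outer sites had 8 to 29 tags, with a median of 16. A pileup under 15 was found at 128 of 309 central sites (41.4%) and at 238 of 730 outer sites (32.6%). At the other end, 69 central sites (22.3%) and 185 outer sites (25.3%) had 20 tags or more. The lowest central pileup, 9 tags with a 95% Poisson interval of 4.12 to 17.1, was listed at chromosome 10, 54963992 to 54964191, with a fold of 4.0, and at chromosome 3, 171228552 to 171228917, with a fold of 3.87. Intervals here and below cover counting error in the tags alone, with the control level taken as fixed. For pileup and fold they make no allowance for the summit being the highest point, or for the q cutoff that every listed site had passed.

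The vector control at the central sites was limited by their choice, since a pileup under 30 tags can be listed only over a low control. The control level, recovered from the deposited fold and pileup and given as unscaled control tags over 200 bp, had a median of 6.0 and an interquartile range of 5.14 to 7.00, against a mean over the genome of 3.50. Outer sites had the same median, 6.0, and an interquartile range of 5.16 to 7.00. It was under 10 tags at 286 of 309 central sites (92.6%) and at 676 of 730 outer sites (92.6%). The peak caller uses the highest of several control estimates, over 200 bp, 1 kb, 10 kb and the genome. At 176 central sites the control level was a whole number (tolerance 0.0005), as a 200 bp count gives, although a 1 kb mean can also be whole. At 80 it had the fractional steps of a 1 kb mean, at 51 those of a 10 kb mean (16.5%, against 23.6% of outer sites), and at 2 it was the genome mean. Those at the genome mean were chromosome 1, 130361025 to 130361224, with 12 tags and a fold of 5.45, and chromosome 3, 87322436 to 87322635, with 10 tags and a fold of 4.61.

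Fold enrichment at the central sites ranged from 2.22 to 10.1, with a median of 4.69 and an interquartile range of 4.07 to 5.62. Outer sites ranged from 2.29 to 10.5, with a median of 4.85. The medians by chromosome had no common order, with the central one lower on 5 chromosomes and higher on 5. The widest contrast was on chromosome 8, where the median was 4.19 at 24 central sites and 5.25 at 55 outer sites. A fold of 5 or more was listed at 125 central sites (40.5%) and 341 outer sites (46.7%), and one under 3 at 4 central and 7 outer sites. The lower 95% counting bound of the fold was above 2 at 279 of 309 central sites (90.3%) and above 3 at 122 (39.5%). Among 730 outer sites these counts were 671 (91.9%) and 335 (45.9%). The shares were 69.1% and 19.6% for the isolated central peaks of higher pileup, and 78.3% and 26.4% for all chromosomal peaks other than the central sites. Within the central parts, the median fold was 4.75 in the right and 4.57 in the left part, and the median pileup was 16 tags in the right and 14 in the left part.

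**Figure D3:**
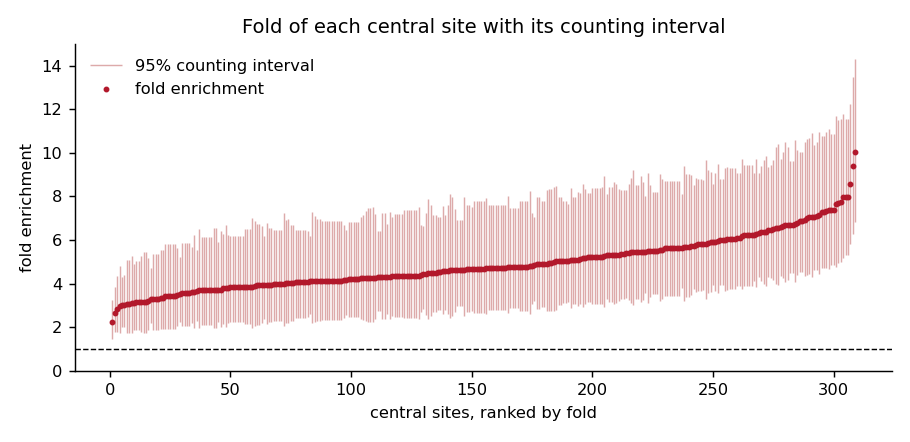
Fold enrichment (vertical axis) of the 309 central sites ranked by fold (horizontal axis), with vertical lines for the 95% Poisson counting interval and a dashed line at a fold of 1. The points run from 2.22 to 10.1, and neighbouring intervals overlap over most of the ranking. Every site was listed because it passed the peak caller's test, so the place of the intervals above the dashed line is no separate support for enrichment.

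The highest fold among the central sites, 10.1, was at chromosome 4, 86240006 to 86240427, where 29 tags (interval 19.4 to 41.6) stood over 5.0 control tags and the −log10 q was 20.5. Chromosome 2, 148743625 to 148743885, followed with 27 tags over 5.0 control tags and a fold of 9.38 (interval 6.30 to 13.5). Chromosome 9, 69062047 to 69062398, had 28 tags over 6.0 and a fold of 8.58. These 3 sites also had the highest −log10 q of the central sites, and the intervals of their folds overlap, so their order is within counting error. The same count, 26 tags over 6.0, gave a fold of 7.99 both at chromosome 5, 121267205 to 121267749, and at chromosome 3, 173079031 to 173079321. The next were a fold of 7.98 at chromosome 3, 149114022 to 149114326, one of 7.75 on chromosome 8, at 111489237 to 111489530, and one of 7.71 on chromosome 2, at 180890590 to 180890938. Chromosome 5, 88334253 to 88334807, reached a fold of 7.64 with 19 tags over 4.08 control tags, and chromosome 10, 76630635 to 76630918, a fold of 7.39 with 24 tags over 6.0. On the remaining chromosomes the highest folds were 7.39 at chromosome 7, 107131072 to 107131753, 7.14 at chromosome 6, 82558209 to 82558527, and 6.88 at chromosome 1, 213018451 to 213019024. The strongest site of each chromosome thus lay between a fold of 6.88 and one of 10.1, with 19 to 29 tags.

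The sites named at the opposite end had control levels of 7.0 to 27.0 tags. At a given pileup the fold falls as the control rises, by its definition. The lowest fold, 2.22, was at chromosome 3, 114251183 to 114251509, where 25 tags stood over 27.0 unscaled control tags, the highest control level of the 309 sites, and where the −log10 q was the lowest, 1.35. The next lowest −log10 q, 1.48, was shared by chromosome 1, 90299955 to 90300213, and chromosome 3, 141332915 to 141333114, each with 11 tags over 7.0 control tags and a fold of 3.18. Ranked by control, a further 4 sites had a control of 19.0 to 23.0 tags and 26 to 27 tags in the pull-down. Their folds were 2.67 on chromosome 2 (146935011 to 146935360), 3.0 on chromosome 3 (101196796 to 101197081), 3.02 on chromosome 7 (118548007 to 118548207) and 3.28 on chromosome 1 (158444411 to 158444765). Their pull-down counts lay within the range of the strongest sites, and their control levels were at least 19.0 tags. A −log10 q under 2 was found at 8 of 309 central sites (2.59%, 95% Clopper-Pearson interval 1.12 to 5.04) and at 27 of 730 outer sites (3.70%, interval 2.45 to 5.34). A −log10 q of 5 or more was reached by 141 central sites (45.6%) and 407 outer sites (55.8%). The median −log10 q was 4.81 at central and 5.52 at outer sites, and the central median was the lower one on 8 of 10 chromosomes.

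**Figure D4:**
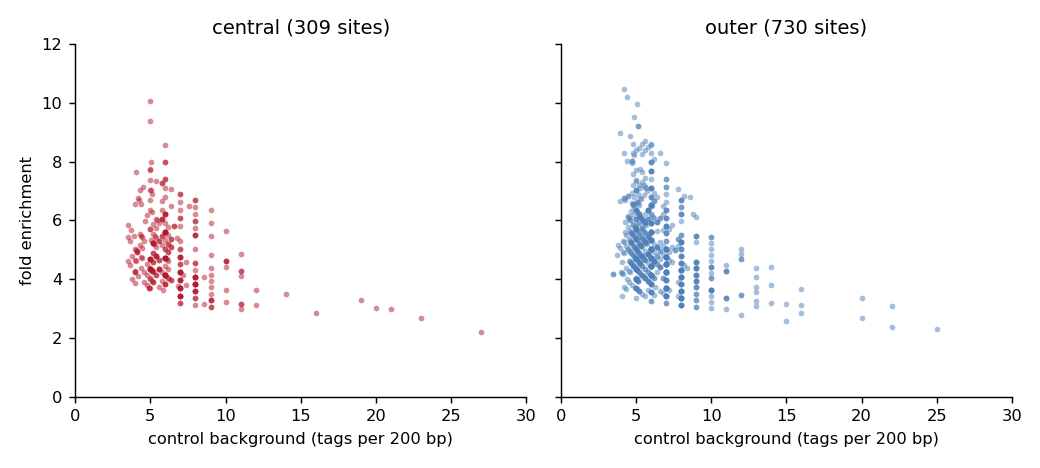
Fold enrichment (vertical axis) against the control background in unscaled tags per 200 bp (horizontal axis), with 1 point per site, for the 309 central sites on the left and the 730 outer sites on the right. Both clouds lie mostly under 10 control tags, and the central points beyond 19.0 control tags have folds of 2.22 to 3.02.

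The threshold on pileup cut through a continuous range. Just inside it were the sites of highest fold named above, on chromosome 4 (29 tags, fold 10.1), chromosome 9 (28 tags, fold 8.58) and chromosome 2 (27 tags, fold 9.38). Also inside, chromosome 4, 178775326 to 178775875, had 28 tags and a fold of 6.34, and chromosome 9, 105957232 to 105957487, had 27 tags and a fold of 6.71. Among sites with 27 tags the fold was as low as 3.0, at chromosome 3, 101196796 to 101197081. Just outside, isolated central peaks with 30 tags had folds of 11.03 on chromosome 1 (193249676 to 193250028), 10.1 on chromosome 3 (155197327 to 155197827), 8.04 on chromosome 5 (63353477 to 63353812) and 7.57 on chromosome 9 (116627478 to 116627853). One with 31 tags followed on chromosome 4 (182665071 to 182666156), with a fold of 9.93. The 204 isolated central peaks with 30 tags or more had a median control of 69.0 tags and a median fold of 2.95. The rule on pileup builds in part of this contrast, since a pileup under 30 tags can be listed only over a low control. The contrast therefore does not show that these peaks are of another kind.

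Central sites were narrow. Their median length was 262 bp, with an interquartile range of 217 to 346 bp, and 45 of 309 (14.6%) had exactly 200 bp, the length to which tags were extended. Outer sites had a median of 268.5 bp, and 96 of 730 (13.2%) had 200 bp. The summit lay between 40% and 60% of the peak's length at 120 central sites (38.8%), 320 outer sites (43.8%) and 132 of the 204 isolated central peaks of higher pileup (64.7%). The longest central site, at chromosome 7, 107131072 to 107131753, had 682 bp and 24 tags. The next longest, of 666 bp and 23 tags, was its neighbour at chromosome 7, 107149026 to 107149691, 17272 bp away, and their folds were 7.39 and 7.27. The shortest, at 200 bp, included chromosome 10, 95449308 to 95449507, and chromosome 7, 112455479 to 112455678, both with 18 tags over 6.0 control tags and a fold of 5.62. The next longest after the pair was chromosome 2, 147530988 to 147531624, with 637 bp and a fold of 5.24.

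That pair of neighbours was an exception, since central sites mostly stood far from any other ZmbZIP60 peak. The distance to the nearest other peak had a median of 485750 bp at central sites and of 293888.5 bp at outer sites, and the central median was the higher one on 10 of 10 chromosomes. A nearest peak more than 1 Mb away was found for 74 central sites (23.9%) and 95 outer sites (13.01%). The isolated central peaks of higher pileup stood farther still, with a median of 634809.5 bp and 74 of 204 (36.3%) more than 1 Mb away. Wide spacing was therefore not particular to the central sites of low pileup. The most remote one was chromosome 1, 106383654 to 106383950, with 12 tags, a fold of 4.27 and no other peak within 6163031 bp. It was followed by chromosome 4, 138514625 to 138514884, with 4589255 bp, and chromosome 10, 40245345 to 40245552, with 4273289 bp. The nearest peak was itself an isolated low-pileup site for 174 central sites (56.3%) and 508 outer sites (69.6%). It was an isolated peak of higher pileup for 91 (29.4%) and 150 (20.5%), and a peak in a cluster for 44 (14.2%) and 72 (9.86%). Blocks of 5 or more peaks lay within 1 Mb of 12 central sites (3.88%) and 19 outer sites (2.60%).

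**Figure D5:**
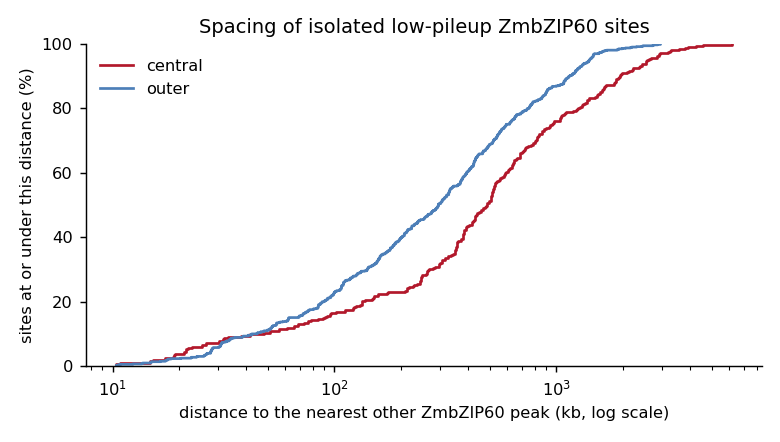
Share of sites (vertical axis, %) whose nearest other ZmbZIP60 peak lies at or under a given distance (horizontal axis, kb, log scale), in red for 309 central and in blue for 730 outer sites. From about 100 kb upwards the red curve runs to the right of the blue one, with medians of 485750 bp and 293888.5 bp.

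Of the 299 pairs of successive central sites on a chromosome, 18 were within 100 kb of each other and 180 more than 1 Mb apart. The closest pair lay 10401 bp apart on chromosome 1, at 180405641 to 180405872 with 24 tags and a fold of 5.47, and at 180416274 to 180416495 with 25 tags and a fold of 6.23. Next came chromosome 1, 158429363 to 158429582, with 11 tags, and its neighbour at 158444411 to 158444765, with 27 tags, 14828 bp apart. The chromosome 7 pair above came next, and a chromosome 5 pair at 151042686 to 151043038 and 151061993 to 151062368, 18954 bp apart, had folds of 5.20 and 6.06.

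The ZmbZIP17 list is a separate pull-down that the choice of sites did not use, although it was called against the same vector control. Of the 309 central sites, 2 overlapped one of its 282 peaks by at least 1 bp (0.647%, 95% Clopper-Pearson interval 0.0785 to 2.32), and of 730 outer sites 1 did (0.137%, interval 0.00347 to 0.761). Over all 2489 chromosomal ZmbZIP60 peaks the share was 7.51%. The difference between central and outer sites, 0.51 percentage points (Newcombe interval -0.279 to 2.20), did not pass the test (two-sided Fisher's exact test, p = 0.212, adjusted p = 0.212 over 2 tests). With so few overlapping sites the test had little power, so it does not show that the shares are equal. With the threshold on pileup at 40, the counts were 5 of 342 and 1 of 771 and the difference was 1.33 points (Fisher's exact test, p = 0.012), so that the call depends on this threshold. The comparison with the isolated central peaks of higher pileup, of which 10 of 204 overlapped a ZmbZIP17 peak (4.90%), gave a difference of -4.25 points (interval -8.17 to -1.47, Fisher's exact test, p = 0.0045, adjusted p = 0.009). It was no longer called with the threshold at 40 (5 of 342 against 7 of 171, Fisher's exact test, p = 0.116) or where summits had to lie within 100 bp (1 of 309 against 4 of 204, p = 0.0842). The peaks of higher pileup also had the higher control, a median of 69.0 against 6.0 tags. They were longer too, with a median of 344.5 against 262 bp, and a longer peak can more easily meet another. The part of control and length in the result was not tested. The pileup that chose the sites also split these groups, and the comparison was added after seeing the data. The tests take sites of merged libraries as units and do not measure biological replication. Between both thresholds stood 33 isolated central peaks with a pileup of 30 to 39, of which 3 overlapped a ZmbZIP17 peak (9.09%).

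Both overlapping central sites lay on chromosome 1, with 199659 bp between them. At 132949890 to 132950272 the ZmbZIP60 list gave 20 tags over 12 control tags and a fold of 3.64, and the ZmbZIP17 list gave a peak at 132949797 to 132950129 with a fold of 2.92. Their summits were 2 bp apart. At 133149932 to 133150174 the ZmbZIP60 list gave 14 tags over 5.2 control tags and a fold of 4.90, and the ZmbZIP17 list gave a peak at 133149980 to 133150244 with a fold of 4.19, with summits 130 bp apart. A ZmbZIP17 peak followed at 133238861 to 133239133 with a fold of 4.33 and no ZmbZIP60 peak on it. Between the central sites lay 2 ZmbZIP60 peaks of higher pileup, at 133042860 to 133043218 with 92 tags and at 133058826 to 133059082 with 48 tags, and neither met a ZmbZIP17 peak. The overlapping outer site was also on chromosome 1, at 76055947 to 76056171 with 20 tags and a fold of 4.59, where the ZmbZIP17 fold was 3.52. Its summit lay at 24.99% of the chromosome, next to the border of the central part. Off chromosome 1, 0 of 260 central sites overlapped, which allows a share of up to 1.15%, and 0 of 607 outer sites, which allows up to 0.494%. Each list has its own depth scaling, and no comparison is made between the folds of the ZmbZIP60 and ZmbZIP17 lists.

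Apart from these overlaps, ZmbZIP17 peaks mostly lay megabases away from the central sites, as they did from other ZmbZIP60 peaks. The distance to the nearest one had a median of 7772626 bp over the 309 central sites and of 7799840.5 bp over the outer sites. The median was 6956257 bp over the isolated central peaks of higher pileup. Over all 2180 chromosomal ZmbZIP60 peaks other than the central sites it was 5727199 bp. The closest without an overlap was chromosome 3, 173458321 to 173458559, with 16 tags and a fold of 5.70, at 1484 bp, followed by a site on chromosome 8 (112910068 to 112910267) at 27983 bp and another on chromosome 9 (61149451 to 61149734) at 48075 bp, both with 10 tags. A ZmbZIP17 peak lay within 1 Mb of 32 central sites (10.4%) and 60 outer sites (8.22%). The share was 14.7% for the isolated central peaks of higher pileup and 24.1% for the 2180 chromosomal peaks other than the central sites. At the control levels of the central sites the ZmbZIP17 call needed a fold of 1.93 to 3.56, with a median of 3.0, for a peak to be listed. A central site with a lower ZmbZIP17 fold than its control level required would not appear in that list.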

How the data were processed

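BWA, bedtools, MACS2 and Trimmomatic 0.36 are named in the submitters' processing notes. Per the file headers, MACS2 (version 2.1.0.20150420) called peaks on merged libraries against the merged vector control, at a q cutoff of 0.05, keeping 1 tag per position, extending tags to 200 bp and taking the genome as 2.7 Gb. The larger dataset was scaled to the smaller, so the deposited ZmbZIP60 pileup signal is in whole unscaled tags. The deposited −log10 p and q are MACS2's, and the deposited fold ratio is (pileup + 1)/(control + 1). The control level was solved from it and multiplied by 2.52, the ratio of control to ZmbZIP60 depth. The Poisson −log10 p recomputed from it was within 0.5 of the deposited one at 309 of 309 central sites.

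The sites, comparisons and alternatives were chosen with earlier results of these data known, and the comparison with isolated central peaks of higher pileup was added after seeing the data. Sites named are those highest and lowest in fold, q, length, control, pileup and spacing, the strongest on each chromosome, and those that meet ZmbZIP17 peaks. Of these, the sites of lowest pileup and fold, the most remote and the closest ones, and the pairs of neighbours were picked after their values were seen. No genome or annotation of this assembly was used, so planned comparisons of motifs and genes were not run, and GC content was not examined. Fisher's exact tests were two-sided with Benjamini-Hochberg adjustment. Upper limits for a count of 0 use 3 counts. The rule and the test were tried on simulated data in which far more sites overlapped than were seen here. The simulation therefore does not cover counts as small as those found. The work used scipy 1.17.1 and pandas 2.3.3 in Python 3.11.15, with matplotlib 3.10.9 for figures.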

Additional observations from a re-analysis of the deposited data

How the results depend on the processing

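The choices varied were the pileup threshold (25 or 40), the isolation distance (5000 or 50000 bp), the central part (33.3% to 66.7% of the length), a −log10 q of at least 2, and the definition of overlap. Of 34 recomputed values, 30 kept their direction and their side of the threshold, or stayed within the limits set for a value with no test. With the central part narrowed in this way, the number of central sites was 192 instead of 309. With a pileup under 40, the central minus outer difference in ZmbZIP17 overlap was 1.33 points (p = 0.012, Fisher's exact test), past the threshold. The difference from isolated central peaks of higher pileup lost its call with a pileup under 40 (-2.63 points) and with summits within 100 bp (-1.64 points). The cause was not tested. The median fold stayed at 4.63 to 4.73 and the median control at 6.0 tags. These medians and the numbers of sites follow largely from the rule. They are among the 34 values, so the count of 30 does not show how stable the tested differences are. Chromosome lengths from a reference assembly, motifs, GC content and genes near the sites were not run. No paired analysis was possible because the lists hold merged libraries with no value per replicate, which also bars leaving out a replicate. With 9 to 29 tags per site, depth limits how finely sites can be ranked.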
